A study of Mus musculus with 6 samples.

Results

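Genes of the classical cadherins and the non-clustered protocadherins were examined in the developing basal forebrain of mouse embryos with and without the homeobox genes Dlx1 and Dlx2. Members were all genes of the count table whose symbol is Cdh or Pcdh followed by a number (with Pcdh11x included). This rule used names alone, though it was chosen with earlier results of these data known, and gave 35 genes of 55416 in the table. The clustered protocadherins, whose symbols carry a letter for their cluster, are not included. Tissue was the ganglionic eminence, the part of the ventral telencephalon that gives rise to striatal neurons and to interneurons, at E13.5, when its neurons are being born. The groups were 3 wild-type libraries and 3 libraries from Dlx1/Dlx2 double knockout embryos, and the controls were littermates. The labels name no allele, strain or sex, and do not say whether a library held 1 embryo or several. Nothing in them shows that the 3 libraries of a group came from separate embryos, so p-values measure the spread between these libraries.

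Cadherins are calcium-dependent adhesion proteins of the cell surface. Their outer part binds cadherins on a neighbouring cell, and the inner part of the classical types binds catenins that link to actin. Type I cadherins such as N-cadherin hold epithelia and neuroepithelia together, whereas type II cadherins are expressed in restricted, partly overlapping patterns that follow brain divisions and nuclei. In the embryonic forebrain, Cdh6 in the lateral ganglionic eminence and Cdh4 in the cortex are known to meet at the boundary between striatum and cortex. The non-clustered protocadherins are grouped as delta-1 and delta-2 by their cytoplasmic tails. They adhere weakly, and several delta-2 members recruit the actin-regulating WAVE complex.

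The type of a classical cadherin can be read at the first codons of the mature protein, because adhesion rests on tryptophan residues that are swapped between partner molecules. The stretches below are shown because the members that passed the test's threshold as higher in the double knockout all carry the type II form. This form is read here from sequence and not from expression. The type II genes that were not called carry it too, also those with a log2 fold change below 0. Each stretch is 36 bases from the coding sequence of GENCODE M21 (GRCm38), beginning at the codon after the site where the precursor is cut. Tryptophan codons are in capitals.
Cdh1, type I: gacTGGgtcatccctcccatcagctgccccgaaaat
Cdh4, type I: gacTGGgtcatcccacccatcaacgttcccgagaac
Cdh7, type II: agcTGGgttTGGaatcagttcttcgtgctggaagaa
Cdh22, type II: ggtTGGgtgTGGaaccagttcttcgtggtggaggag
Cdh6, type II: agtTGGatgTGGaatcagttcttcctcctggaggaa
Cdh19, type II: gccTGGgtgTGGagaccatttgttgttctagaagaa
Cdh11, type II: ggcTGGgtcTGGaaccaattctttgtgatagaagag
Cdh5, type II: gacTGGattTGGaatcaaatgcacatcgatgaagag
The site was found in all 18 classical members by a search that itself required a tryptophan at codon 2. The search set no condition on codon 4, where all 13 type II genes and none of the 5 type I genes had a further tryptophan codon. Between type II genes 19 to 33 of the 36 bases were identical, against 11 to 20 between type II genes and Cdh1, Cdh3, Cdh4 and Cdh15. Cdh7 and Cdh6 shared 30 bases, while Cdh19 shared 24 with Cdh7 and 21 with Cdh6. The Cdh7 stretch lies at chr1:109994321-109994356 on the plus strand. The others of the 4 genes that passed this threshold as higher are on the minus strand, Cdh22 at chr2:165180937-165180972, Cdh6 at chr15:13091683-13091718 and Cdh19 at chr1:110954596-110954631. All 4 are in the first coding exon.

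The libraries held between 56618090 and 70114173 counts. Dlx1 fell from 438.9 to 81.6 and Dlx2 from 295.7 to 8.68 CPM (counts relative to library size, scaled with the TMM method), with all 3 double knockout libraries below all wild-type libraries, so no library went against its label. Defining genes of the ganglionic eminence were present in both groups: Gsx2 was at 23.5 CPM in wild-type tissue and 36.6 CPM in the double knockout, and Lhx6 at 172 and 96.6 CPM. Some libraries stood apart. Wild-type replicate 1 held 26.3 CPM of the choroid plexus gene Ttr, which was below 0.16 CPM elsewhere. The X-inactivation gene Xist lay between 1234 and 1552 CPM in 3 libraries (wild-type replicates 2, 3 and replicate 1 of the double knockout) and below 1 CPM elsewhere. Y-linked genes summed to 206.5 CPM in wild-type replicate 1, 213.9 and 211.6 CPM in double knockout replicates 2 and 3, and below 1 CPM elsewhere. These CPM are without TMM scaling. Each group thus held libraries of both sexes, so more than 1 embryo, and sex was not balanced between groups. Double knockout replicate 3 was low in genes that span a long stretch of genome, and the values are given with the delta-1 protocadherins below.

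Of the 35 genes, 32 passed the filter on low counts, and edgeR's quasi-likelihood test called 5 at an adjusted p under 0.05. The type II cadherin genes Cdh7, Cdh22, Cdh6 and Cdh19 rose and the delta-2 protocadherin gene Pcdh8 fell. Of these, Cdh19 passed the filter only through the double knockout libraries. Across all 23628 tested genes the same test called 2.68%, with 1.34% higher and 1.34% lower. A further 8 members had an unadjusted p under 0.05, which makes 13 of 32, where 13.3% of all genes reached it (edgeR). The 2 groups did not overlap for 14 of 32 members, against 19.5% of all tested genes. Each of these counts of 5, 13 and 14 members includes Cdh19, whose passage through the filter depended on its difference. The median log2 fold change, double knockout over wild type, was 0.03 over the members and -0.0016 over all genes, and 17 members were above 0 and 15 below. The median size of the change, regardless of sign, was 0.20 on the log2 scale for members above about 1 CPM and 0.09 for all genes above that level. Because the tissue was measured in bulk, fewer cells of a type and less RNA per cell cannot be told apart in any of these values.

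**Figure D1:**
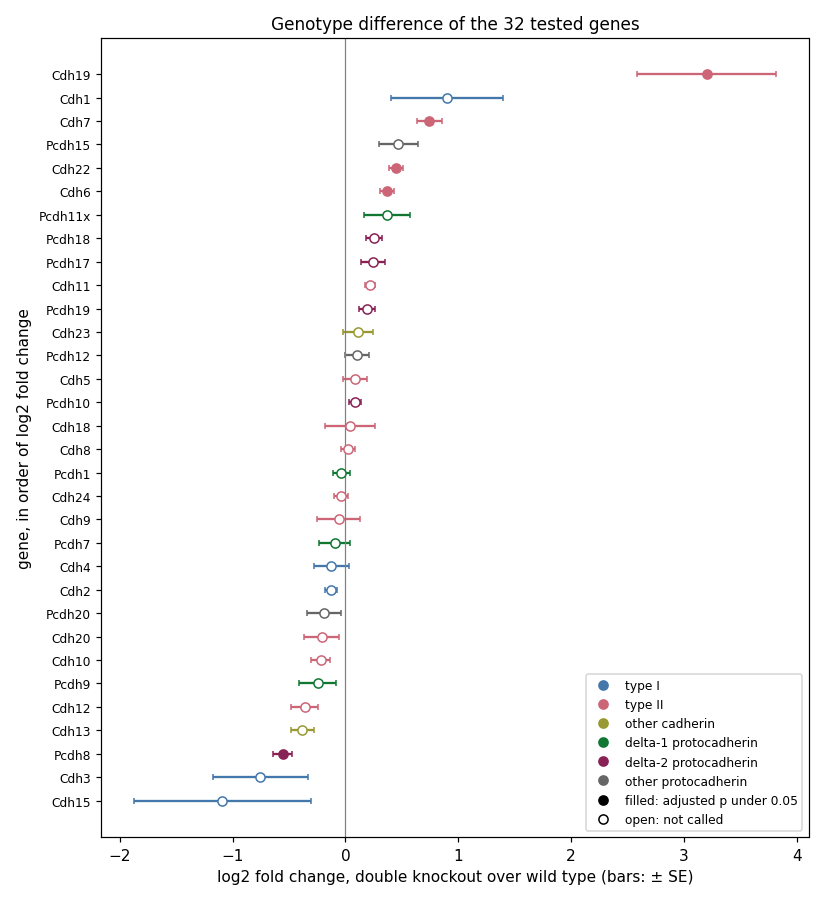
Log2 fold change of the 32 tested genes, double knockout over wild type, with bars for the SE of the fit, in order of size. Colours give the class, and the 5 filled points passed the threshold: Cdh19, Cdh7, Cdh22 and Cdh6 on the right and Pcdh8 on the left.

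Levels of different genes were compared as CPM per kilobase of annotated exon. Cdh2 led by a wide margin in the wild type, at 66.1 ± 1.75 CPM per kb (SD, n = 3). Cdh4 followed at 18.6 ± 1.4, Pcdh19 at 15.5 ± 0.379, Cdh24 at 13.9 ± 0.379, Pcdh10 just below it, Pcdh1 at 11.5 ± 1.15 and Pcdh8 at 10.8 ± 0.503 CPM per kb. The ranges of 1 SD around the mean overlapped for Cdh24 and Pcdh10, and for Pcdh1 and Pcdh8. In the double knockout Cdh2 was at 60.5, Pcdh19 at 17.7 and Pcdh8 at 7.33 CPM per kb, and Pcdh19 and Cdh4 lay within each other's spread. The genes called higher were in the middle or at the bottom of this order. In the wild type Cdh22 was at 6.13, Cdh6 at 5.79, Cdh7 at 2.29 and Cdh19 at 0.0112 CPM per kb. The 3 genes that were not tested, Cdh16 of the kidney, Cdh17 of the intestine and Cdh26, had at most 12 reads in any library, and Cdh16 had no read in the double knockout. A count of 0 allows up to 3 reads, which is 0.0428 to 0.053 CPM in these libraries and covers counting error only.

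**Figure D2:**
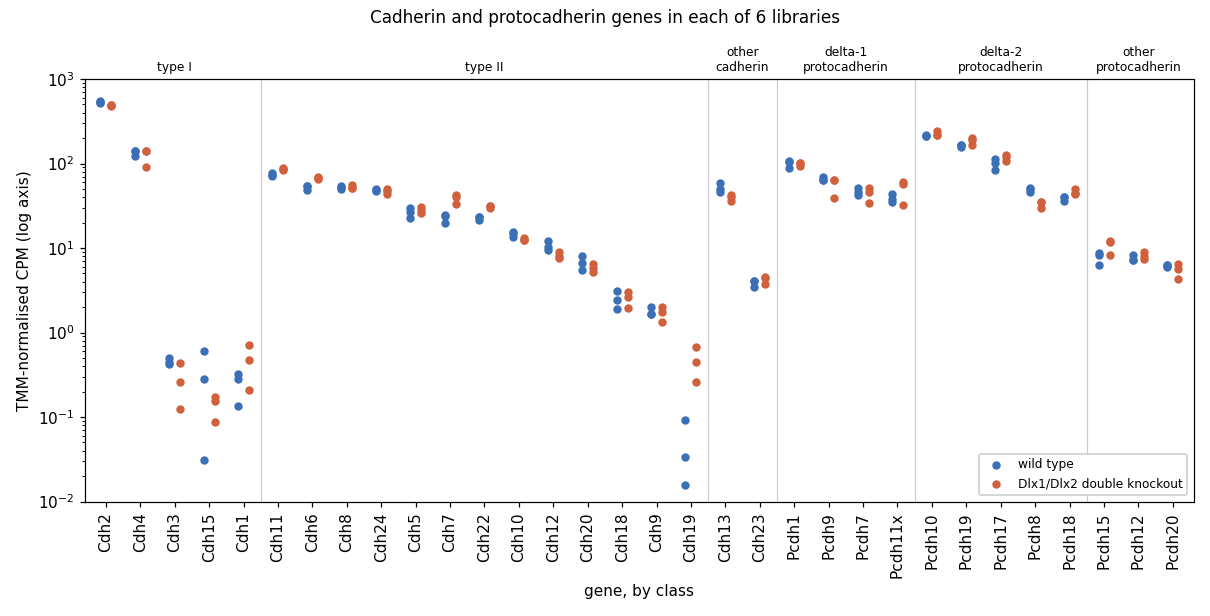
TMM-normalised CPM of the 32 tested genes in each library, on a log axis and grouped by class. Each point is 1 library, blue for wild type and orange for double knockout. Cdh2 lies highest and Cdh19 lowest in the wild type, and most genes show overlapping groups.

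Among the type I cadherins none of 5 genes was called. Cdh2, which encodes N-cadherin, the main cadherin of neuroepithelial junctions, was at 533.0, 519.5 and 547.7 CPM in wild-type tissue and 496.1, 488.2 and 479.1 CPM in the double knockout. All double knockout libraries were lower, but the difference was small (log2 fold change -0.13, SE 0.0518, edgeR adjusted p 0.323). Cdh4, which encodes R-cadherin, was at 140.4, 123.1 and 141.0 CPM in wild-type tissue and 138.8, 141.8 and 90.5 CPM in the double knockout. Only double knockout replicate 3 was low, and the log2 fold change of -0.12 (SE 0.153) turned to 0.06 without that library. The epithelial gene Cdh1 (E-cadherin) had 8 to 21 reads in wild-type and 12 to 46 in mutant libraries, and Cdh3 (P-cadherin) 27 to 29 and 8 to 25. Cdh15, the cadherin of muscle precursors, ranged from 2 to 35 reads within the wild type alone. At these low counts the SEs of the log2 fold changes were 0.494, 0.423 and 0.785 in this order, and no difference was detectable. The summed level of the class was 643.7 to 689.4 CPM in wild-type and 570.5 to 635.9 CPM in double knockout libraries, and Cdh2 and Cdh4 made up nearly all of it.

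Type II cadherins held all of the called increases, and no gene of the class was called lower. Cdh7, Cdh22 and Cdh6 were called among the 12 genes other than Cdh19, beside 1.34% of all genes higher. Cdh19 is described apart from this count, because it passed the filter on low counts only through the double knockout libraries. Cdh7 (ENSMUSG00000026312) was at 20.05, 24.8 and 24.1 CPM in wild-type tissue and 42.1, 40.1 and 33.2 CPM in the double knockout. Even the lowest double knockout library exceeded the highest wild-type library. The mean rose from 22.98 ± 2.56 to 38.5 ± 4.71 CPM (SD, n = 3), 1.67-fold (log2 fold change 0.74, SE 0.112, edgeR adjusted p 0.0103). It was called in each of its 14 alternatives, with values between 0.65 and 0.85.

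Cdh22 (ENSMUSG00000053166), known as the pituitary and brain cadherin, had tight groups. It was at 21.6, 23.3 and 23.2 CPM in wild-type tissue and 29.9, 31.2 and 31.9 CPM in the double knockout. The SD within each group was below 1 CPM, and the means were 22.7 ± 0.966 and 31.0 ± 0.985 CPM (SD, n = 3). The fitted log2 difference was 0.45 (SE 0.0655), at an edgeR adjusted p of 0.00895, and the gene was called in each of its 14 alternatives.

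Cdh6 (ENSMUSG00000039385), the cadherin of the lateral ganglionic eminence named above, was at 48.3, 54.9 and 53.5 CPM in wild-type tissue and 69.9, 67.9 and 64.9 CPM in the double knockout. The groups did not overlap. Its mean rose 1.29-fold (log2 fold change 0.37, SE 0.0625, edgeR adjusted p 0.0175). The call was lost without wild-type replicate 1 or 3 or double knockout replicate 1 or 2, where the adjusted p was 0.064, 0.0646, 0.0778 and 0.0667 and the log2 fold change 0.32 to 0.39.

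Cdh19 (ENSMUSG00000047216), which is known from neural crest derivatives and the Schwann cell lineage, was close to absent in the wild type. It had 2, 1 and 6 reads there and 29, 39 and 18 reads in the double knockout, or 0.0341, 0.0156 and 0.0935 CPM against 0.447, 0.676 and 0.26 CPM. All double knockout libraries were higher, though the gene stayed below 1 CPM in each. Summed over libraries, 86 reads stood against 9, a ratio of 9.31. The exact 95% interval of 4.68 to 21.1 covers counting error alone. It leaves out the spread between libraries and is not a test of the difference. The wild-type libraries of Cdh19 alone would not have passed the filter, so a gene at this level could be tested only if it differed. Under the filter at a mean of 1 CPM, Cdh19 was not tested. The log2 fold change of 3.20 (SE 0.618) had an edgeR adjusted p of 0.0324, which rose to 0.148 without wild-type replicate 1. Without wild-type replicate 3, which held 6 of the 9 wild-type reads, the log2 fold change was 4.12, and over the 13 alternatives it ranged from 2.78 to 4.12. The call was also lost without wild-type replicate 2 (0.117) or double knockout replicate 1 (0.0967) or 2 (0.108). It was lost with limma-voom (adjusted p 0.0526) and with Y-linked expression as a covariate (0.093 in edgeR), and the adjusted p ranged from 7.2e-04 to 0.148 over its 13 alternatives.

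**Figure D3:**
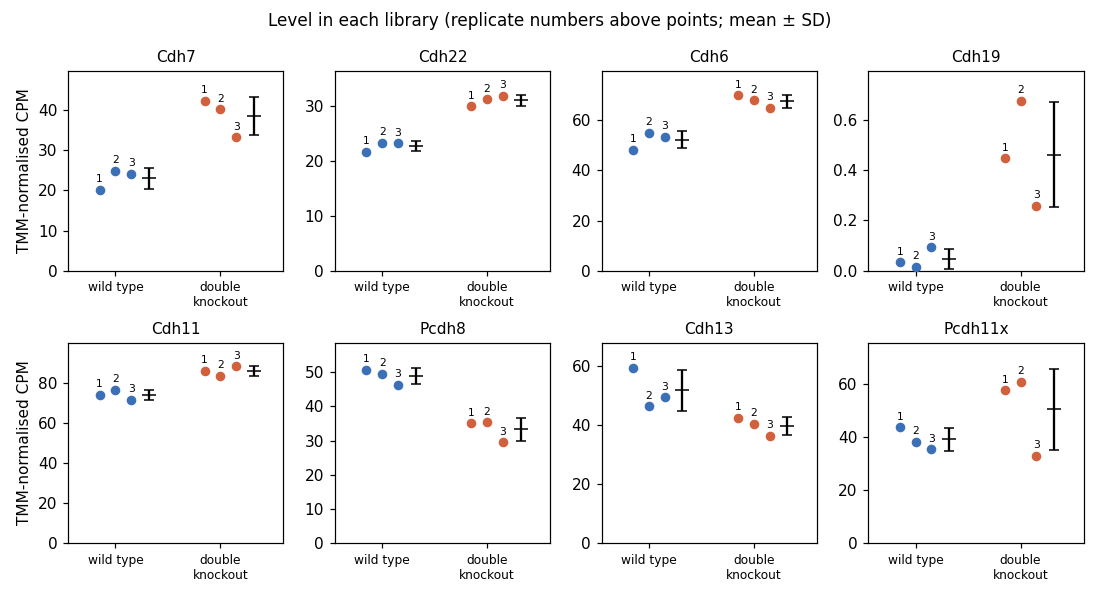
TMM-normalised CPM per library for the 5 called genes and for Cdh11, Cdh13 and Pcdh11x, on linear axes from 0. Numbers are replicate numbers and black bars give the mean ± SD of a group. Cdh7, Cdh22, Cdh6, Cdh19 and Cdh11 lie higher in all 3 double knockout libraries and Pcdh8 and Cdh13 lower, whereas Pcdh11x is high in 2 of 3.

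Marker genes of cell types were read beside these changes. Counts are of genes called at an adjusted p under 0.05 by edgeR, beside 1.34% of all tested genes in each direction. Of 9 ganglionic eminence markers 2 were called higher and 5 lower. They summed to 1631 to 1687 CPM in wild-type and 1204 to 1413 CPM in double knockout libraries. Markers of the dorsal telencephalon summed to 866.6 to 883.3 CPM and 661.6 to 698.0 CPM. Of these, 1 of 6 was called lower, and the median log2 fold change of the 6 was -0.30. All 4 oligodendrocyte precursor markers were called higher. Their summed level was 64.0 to 65.4 CPM in wild-type and 124.3 to 165.0 CPM in double knockout libraries. Among these, Sox10, which Schwann cells and other crest derivatives share, rose from 1.38 to 6.34 CPM. Radial glia markers summed to 1184 to 1311 CPM and 1418 to 1526 CPM, with 1 of 6 genes called. Pan-neuronal markers summed to 5337 to 5821 CPM and 4347 to 5067 CPM, with none of 6 called. Their part in the changes of Cdh7, Cdh22, Cdh6, Cdh19 and Pcdh8 was not tested.

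The type II gene with the highest CPM, Cdh11, came close to the threshold. It was at 73.9, 76.4 and 71.5 CPM in wild-type tissue and 86.2, 83.5 and 88.2 CPM in the double knockout. No library overlapped with the other group, and the log2 fold change was 0.22 (SE 0.0476) and the edgeR adjusted p 0.0547. It was called in 4 of its 14 alternatives, at an adjusted p of 0.0499 with size factors from DESeq2, 0.0317 with total counts, 0.0329 with the filter at 1 CPM (all edgeR) and 0.0196 with DESeq2. It was not called in any fit that left out 1 library. Cdh11 is known from bone-forming and other mesenchymal cells as well as brain. Meningeal and mesenchymal markers summed to 24.7 to 39.2 CPM in wild-type and 27.9 to 28.9 CPM in double knockout libraries, with none of the 6 tested genes called.

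Cdh12 and Cdh10 were lower in all double knockout libraries, and neither was called. Cdh12 was at 12, 10.2 and 9.35 CPM in wild-type tissue and 9.09, 7.96 and 7.53 CPM in the mutant, at an edgeR adjusted p of 0.223. Cdh10 was at 14.95, 13.6 and 15.5 CPM and 13.2, 12.4 and 12.3 CPM, at an edgeR adjusted p of 0.297. For both genes the groups did not overlap, with log2 fold changes of -0.36 (SE 0.122) and -0.22 (SE 0.0838). Cdh12 spans 1140.3 kb, and without wild-type replicate 1, its highest library, its log2 fold change was -0.26. Cdh8, which is known from striatal and cortical circuits, was level, at 52.2 ± 2.59 and 53.1 ± 2.19 CPM (SD, n = 3) and a log2 fold change of 0.02 (SE 0.0592). Cdh24, at 48.4 ± 1.32 and 47.05 ± 2.78 CPM, had a log2 fold change of -0.04 (SE 0.0605). For Cdh9, Cdh18 and Cdh20, at 1.70 to 6.75 CPM in group means, the groups overlapped. Cdh5, the VE-cadherin gene of endothelial cells, was at 26.5 ± 3.47 and 28.1 ± 2.55 CPM. The 8 endothelial markers summed to 112.4 to 128.0 and 117.0 to 136.2 CPM, and none was called. The class as a whole summed to 332.0 to 338.0 CPM in wild-type and 377.1 to 386.7 CPM in double knockout libraries.

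Several type II genes are neighbours in the genome. Cdh7 and Cdh19 follow each other on chromosome 1 with no annotated coding gene between them in GENCODE M21. Both were called higher, but Cdh19 passed the filter on low counts only through the double knockout libraries. Nothing about neighbours is therefore drawn from this pair. Cdh20, which shares 32 of 36 bases with Cdh7 in the stretch described above, more than any other gene compared, lies on the same chromosome beyond 20 coding genes. It was at 8.04, 6.69 and 5.52 CPM in wild-type tissue and 5.79, 5.24 and 6.44 CPM in the double knockout, with overlapping groups. Cdh6, Cdh9, Cdh10 and Cdh12 follow each other on chromosome 15, also with no coding gene between, and had log2 fold changes of 0.37, -0.06, -0.22 and -0.36 in this order. On chromosome 8, Cdh8, Cdh11 and Cdh5 are consecutive and had values of 0.02, 0.22 and 0.09 on the same scale. Only Cdh7, Cdh19 and Cdh6 of these were called, and differences between neighbours were not tested.

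Of the other cadherins, Cdh13 was lower in all double knockout libraries. This gene encodes T-cadherin, which lacks a cytoplasmic tail and is held in the membrane by a lipid anchor. It was at 59.3, 46.3 and 49.4 CPM in wild-type tissue and 42.3, 40.4 and 36.3 CPM in the double knockout. The fitted log2 difference was -0.38 (SE 0.0991), at an edgeR adjusted p of 0.103. It was called by DESeq2 (adjusted p 0.0148) and by edgeR with no filter on low counts (0.0354), but not in any fit that left out 1 library. Cdh13 spans 1041.2 kb, and without wild-type replicate 1, its highest library, the log2 fold change was -0.27. Cdh23, whose protein forms the tip links of sensory hair cells, was at 4.06, 4.12 and 3.49 CPM in wild-type tissue and 4.48, 4.39 and 3.72 CPM in the double knockout, and the groups overlapped.

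No delta-1 protocadherin gene was called, and for Pcdh7, Pcdh9 and Pcdh11x double knockout replicate 3 was the lowest of all libraries. Pcdh1 was at 108.4, 89.4 and 105.0 CPM in wild-type tissue and 101.1, 100.3 and 93.8 CPM in the double knockout. Pcdh9 was at 63.8, 69.1 and 64.2 CPM and 63.7, 63.7 and 39.2 CPM, with 1 double knockout library far below the others. The log2 fold change of -0.24 (SE 0.164) became -0.04 without that library. Pcdh11x, on the X chromosome, was at 43.5, 38.1 and 35.2 CPM in wild-type tissue and 57.5, 60.6 and 32.7 CPM in the double knockout. Here replicate 3 again was the low one, and lay below every wild-type library. With all libraries, the fitted log2 difference was 0.37 (SE 0.204), at an edgeR adjusted p of 0.516. Without double knockout replicate 3 it was 0.61, with an edgeR adjusted p of 0.00652, whereas the gene was not called in any other alternative. Pcdh7 was at 51.6, 42.6 and 46.6 CPM in wild-type tissue and 51.1, 46.5 and 34.3 CPM in the double knockout. Exons of another gene on the opposite strand cover 21.1% of its exon length in GENCODE M21, so its counts are uncertain if counting ignored strand.

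The low values of double knockout replicate 3 went with gene span, the length from the first to the last annotated base. Of the 10 members of at least 1 CPM that span 300 kb or more, 9 were lower in this library than in the mean of replicates 1 and 2. Their median difference was -0.46 on the log2 scale, with Pcdh11x (620.4 kb) at -0.84, Pcdh9 (877.3 kb) at -0.70 and Cdh4 (456.9 kb) at -0.63. Cdh8 (392.0 kb) was the exception at 0.10. The 18 shorter members had a median of -0.06. Over all genes of at least 1 CPM, the median of this library was 0.04 for genes under 10 kb and -0.20 for the 514 genes over 300 kb. Wild-type replicate 2 differed from its group in the same direction, by -0.09 over those 514 genes. Wild-type replicate 1 differed in the opposite direction, by 0.1 over the same genes. The called genes are shorter, at 89.3 to 157.7 kb for those that rose and 4.5 kb for Pcdh8. In double knockout replicate 3, Cdh7 was nevertheless at -0.31 and Pcdh8 at -0.25 relative to the other double knockout libraries (log2). Cdh22 was at 0.06 and Cdh6 at -0.09.

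**Figure D4:**
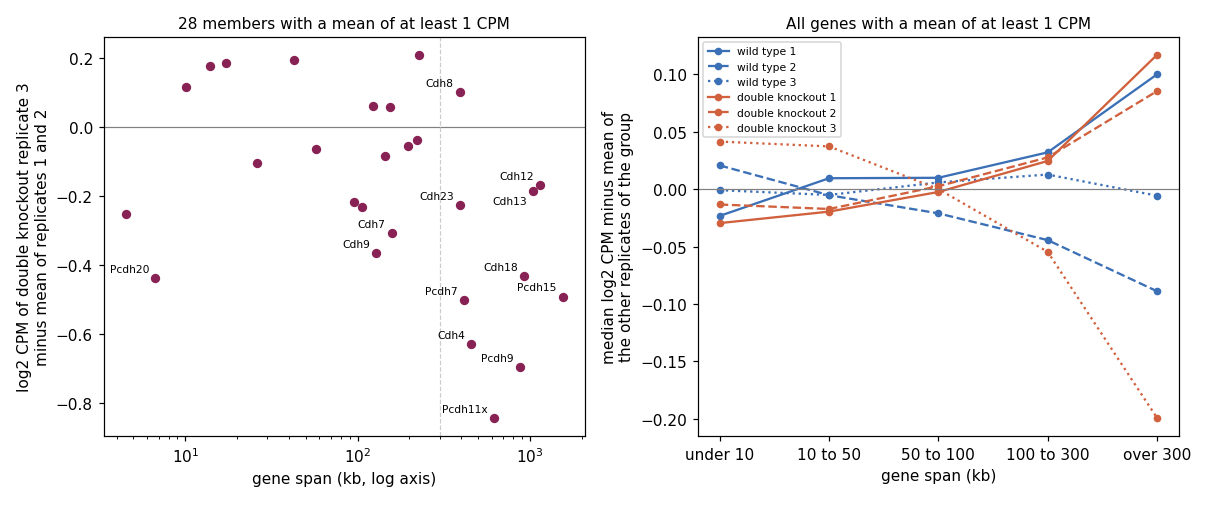
Left, difference of double knockout replicate 3 from the mean of replicates 1 and 2 (log2 CPM) against gene span (kb, log axis) for 28 members. The dashed line marks 300 kb. Right, median difference of each library from the other replicates of its group over all genes of at least 1 CPM, by gene span. Double knockout replicate 3 falls to -0.199 over the longest genes.

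Delta-2 protocadherins held the single called decrease, in 1 of 5 tested genes, beside 1.34% of all genes called lower. Pcdh8 (ENSMUSG00000036422), known as arcadlin or paraxial protocadherin, is induced by neuronal activity and promotes the removal of N-cadherin from the surface. It was at 50.8, 49.6 and 46.3 CPM in wild-type tissue and 35.0, 35.4 and 29.4 CPM in the double knockout. The groups were far apart relative to their spread. The mean fell from 48.9 ± 2.28 to 33.3 ± 3.32 CPM (SD, n = 3). Its log2 fold change was -0.56 (SE 0.0813), at an edgeR adjusted p of 0.00895. It was called in 13 of 14 alternatives, and the exception was without wild-type replicate 2 (edgeR adjusted p 0.0502). Exons of a gene on the opposite strand cover 9.61% of its exon length, which matters only if counting ignored strand. As a short gene that fell in all 3 libraries it is shown with the 250 bases before its start, from RefSeq (GRCm38.p6, chr14:79771313-79771562, minus strand), which overlap no exon in GENCODE M21.
Pcdh8: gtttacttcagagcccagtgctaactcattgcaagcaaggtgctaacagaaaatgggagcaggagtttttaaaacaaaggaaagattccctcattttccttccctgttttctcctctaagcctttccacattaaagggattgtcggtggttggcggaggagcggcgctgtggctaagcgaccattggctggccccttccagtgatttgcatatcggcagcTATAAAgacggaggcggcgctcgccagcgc
Capitals mark the TATA element TATAAA, searched on the gene's own strand, which begins 30 bases before the start and is found in 7.59% of all 32851 such windows. The homeodomain motif TAATTA and its variant TAATTG, searched on both strands, are not in this window, and 4.84% and 7.17% of all windows hold them. Among the 22 members with a window, TATAAA was found for Pcdh8 and for Pcdh15, where it begins 33 bases before the start. TAATTA was found for Cdh7 alone, in 1 of its 3 windows, which lies within annotated exon, and TAATTG for Cdh20, Cdh26 and Pcdh15. A match is a description of letters and not a bound site.

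The other delta-2 genes were all above 0 in log2 fold change, and none was called. Pcdh18 was at 36.4, 39.9 and 40.0 CPM in wild-type tissue and 44.2, 44.1 and 50.02 CPM in the double knockout (log2 fold change 0.25, SE 0.0715, edgeR adjusted p 0.14). Pcdh19, an X-linked gene whose loss in part of the cells causes epilepsy in females, was at 165.2, 158.1 and 164.7 CPM and 188.6, 201.3 and 165.8 CPM. Groups did not overlap for either gene, though for Pcdh19 double knockout replicate 3 lay within 1 CPM of wild-type replicate 1. The edgeR adjusted p of Pcdh19 was 0.282, 0.486 with the Y-linked covariate and 0.0183 without double knockout replicate 3, with log2 fold changes of 0.19, 0.19 and 0.27. Pcdh10, which is needed for the growth of striatal axons, was at 219.1, 214.6 and 209.5 CPM in wild-type tissue and 241.8, 219.7 and 220.5 CPM in the double knockout, a log2 fold change of 0.08 (SE 0.0541). Pcdh17, known from the synapses of cortico-basal ganglia circuits, was at 98.9 ± 14.7 and 117.1 ± 10.1 CPM (SD, n = 3), and its groups overlapped. Pcdh8 was the only gene of the class below 0, and the summed class level overlapped at 545.3 to 583.7 and 571.5 to 634.5 CPM.

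Among the remaining protocadherins none was called. Pcdh15, the tip-link partner of Cdh23, was at 8.33, 6.33 and 8.62 CPM in wild-type tissue and 11.9, 12.1 and 8.36 CPM in the double knockout. Replicate 3 overlapped the wild type, and the fitted log2 difference was 0.47 (SE 0.17), at an edgeR adjusted p of 0.258. This gene spans 1550.4 kb, and the value without double knockout replicate 3 was 0.63 (edgeR adjusted p 0.051, against 0.0884 to 0.523 in the other alternatives). The endothelial gene Pcdh12 was at 7.25, 7.23 and 8.17 CPM and 7.52, 7.94 and 8.87 CPM, overlapping as Cdh5 did. Pcdh20 was at 6.23 ± 0.237 and 5.46 ± 1.09 CPM (SD, n = 3).

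Genes that act with cadherins were read from 5 lists of 64 genes in all, of which 54 were tested and 5 called, 4 higher and 1 lower, beside 2.68% called among all tested genes (1.34% in each direction). None of the 10 tested catenin genes was called. Ctnnb1, for beta-catenin, was at 644.8 and 680.9 CPM in mean, and Ctnna2, for the neuronal alpha-catenin, at 243.2 and 235.5 CPM. The summed catenin level was 1403 to 1420 CPM in wild-type and 1429 to 1484 CPM in double knockout libraries. None of the 9 WAVE complex genes was called either, and their sums overlapped, at 1090 to 1261 and 1207 to 1225 CPM.

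Of the 12 junction partners reported, 2 were called higher and none lower, where 1.34% of all genes were called higher. The median log2 fold change over the 12 partners was 0.07. Lima1, which encodes the actin-binding protein EPLIN, was at 86.5, 90.6 and 91.2 CPM in wild-type tissue and 132.8, 121.0 and 155.7 CPM in the double knockout (log2 fold change 0.61, SE 0.0854, edgeR adjusted p 0.00747). Nectin3, an adhesion molecule of the immunoglobulin family, was at 56.9, 59.0 and 64.8 CPM and 78.0, 73.0 and 78.2 CPM (log2 fold change 0.34, SE 0.0617, edgeR adjusted p 0.024). Both genes were higher in every double knockout library than in any wild-type library. From the wider cadherin superfamily only Fat1, the giant cadherin of the Hippo and actin pathways, was called among 18 tested genes, at 200.7, 208.1 and 230.7 CPM and 261.1, 278.8 and 260.5 CPM (log2 fold change 0.32, SE 0.0638).

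The known repressors of E-cadherin included a pair that moved in opposite directions. Zeb1 rose from 150.1, 154.9 and 162.8 CPM to 223.7, 222.1 and 244.7 CPM (log2 fold change 0.56, SE 0.0567, edgeR adjusted p 0.00139). Zeb2, which is also needed for the migration of cortical interneurons, fell from 487.9, 472.4 and 484.4 CPM to 306.1, 316.5 and 366.9 CPM (log2 fold change -0.55, SE 0.0738, edgeR adjusted p 0.00626). Snai1, Snai2 and Twist1 were not called. Exons of other genes overlap 1.93% of Zeb1 and 3.32% of Zeb2. Of the 5 called partner genes, Lima1, Zeb1 and Zeb2 were called in each fit that left out 1 library, while others were not. With the Y-linked covariate Nectin3 and Fat1 lost their calls and Cdhr1, another cadherin superfamily gene, gained one. Nectin3 was also lost without wild-type replicate 1 or 2 or double knockout replicate 1. Fat1 was also lost without wild-type replicate 1 or 2 or double knockout replicate 1 or 2.

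**Figure D5:**
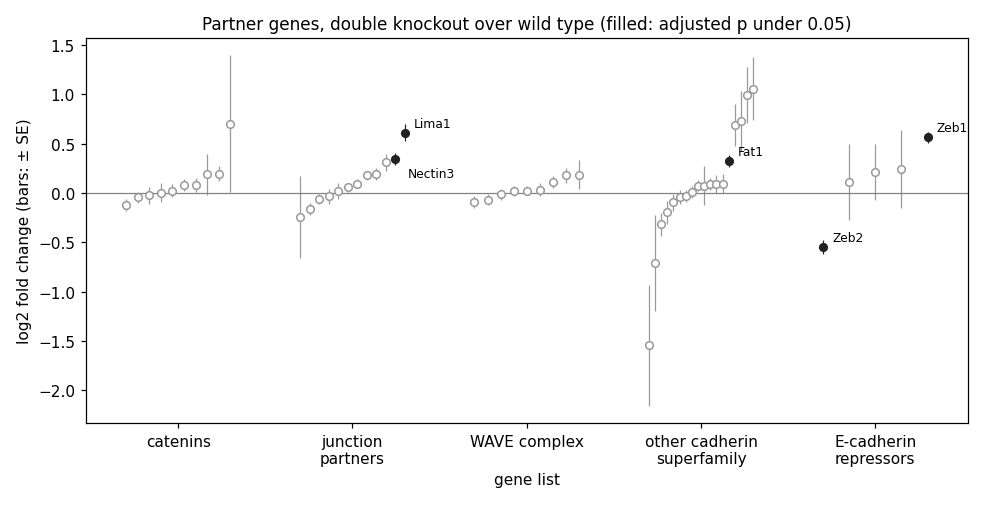
Log2 fold change of the 54 tested partner genes, double knockout over wild type, in 5 lists, with bars for the SE. Filled points passed the threshold and are named: Lima1, Nectin3, Fat1 and Zeb1 above 0 and Zeb2 below.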

How the data were processed

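Total RNA was sequenced from 6 libraries, 3 per genotype, and 3 per group limits the precision. Per the submitters' processing notes, reads were counted per gene with featureCounts on the genome build GRCm39. The aligner, annotation, strand and multi-mapping settings are not given in the sources used here. The deposited table holds read counts per gene, whole numbers with a different total in each library, so they were taken as not normalised. Per the labels' protocols, the kit was stranded and removed ribosomal RNA.

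Counts were filtered with filterByExpr (minimum count 10, minimum total 15) and tested with edgeR 4.0.16 in R 4.3.3: quasi-likelihood, TMM scaling, genotype as the only term, a prior count of 0.125 and Benjamini-Hochberg adjustment over all 23628 tested genes. The threshold was an adjusted p under 0.05. The code was tested on simulated data. Alternatives used DESeq2 1.42.0, limma 3.58.1 (voom), other scalings and filters, the replicate number as a block, Y-linked expression (Ddx3y, Eif2s3y, Kdm5d and Uty) as a covariate, and 1 library left out in turn. A library left out leaves 2 in its group. Exon lengths, spans and overlaps came from GENCODE M21 (GRCm38), which held all 35 members and 98.7% of tested genes. No coordinates are converted between builds.

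The members and gene lists were chosen with earlier results of these data known. The text gives every member by class. Values per library are given for called members, for those with an unadjusted p under 0.05 and for the 2 highest by CPM of each class. Up to 6 called genes of each partner list are named, and 1 gene of these lists is not reported here. Pcdh7, Pcdh11x, Pcdh17 and Cdh20, among others, were described in more detail after their values were seen.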

Additional observations from a re-analysis of the deposited data

How the results depend on the processing

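Over 14 alternatives (13 for genes under 1 CPM), the 32 tested members gave 444 values, of which 411 kept direction and side of the threshold, 12 lost a call, 9 gained one and 12 reversed. None of the 5 called genes reversed. The reversals were in 8 genes that were not called, all in fits without 1 library, whose log2 fold changes ranged from -0.234 to 0.0635 for Cdh4, -0.009 to 0.182 for Cdh5, -0.0134 to 0.0526 for Cdh8, -0.206 to 0.0927 for Cdh9, -0.113 to 0.232 for Cdh18, -0.0745 to 0.00327 for Cdh24, -0.118 to 0.0164 for Pcdh1 and -0.217 to 0.0635 for Pcdh7. Without 1 library, 3 to 7 members, 3 to 6 partner genes and 309 to 749 of all genes were called, with the highest counts without double knockout replicate 3. Of all genes, the fewest were called without wild-type replicate 1, whereas 3 members were called without any 1 of wild-type replicates 1 and 2 and double knockout replicates 1 and 2. At an adjusted p under 0.01, 2 members (Cdh22 and Pcdh8), 3 partner genes and 275 genes were called by edgeR. DESeq2 called 1162 genes and the Y-linked covariate 358, with 7 and 4 members and 8 and 4 partner genes. The cause was not tested. Total count scaling shifted the median of all genes to 0.0268 and called 390 higher and 256 lower, against 317 and 317.

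With the replicate block 690 genes, 5 members and 6 partner genes were called. The block gained Cdh13 and lost Cdh19, and changed no other call among the members. The numbers were not taken to pair the libraries: across genes, the departures of libraries with 1 number from their own group's mean correlated at -0.0629, -0.00129 and 0.035, and 1 of 6 libraries correlated best with its own number. Under the block the adjusted p was 0.0454 for Cdh13 and 0.0735 for Cdh19 in edgeR.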
